A study of Homo sapiens with 6 samples.

Results

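The genes described here are 9 members of the PARP family of ADP-ribosyltransferases, PARP1, PARP2, PARP3, PARP4, PARP8, PARP9, PARP10, PARP12 and PARP14, together with DTX3L, the ubiquitin ligase that pairs with PARP9. They were taken by name, as the rows of the count table whose Ensembl identifiers map to these symbols, and each of the 10 symbols matched 1 of the 60617 rows. The series compares RNA from A549 cells, a human lung cancer cell line, in 2 groups of 3 libraries: wild-type cells with no treatment named, and cells of the same line labelled as a YTHDF1 knockout, with no treatment named either. YTHDF1 is a reader protein that binds m6A, a methyl mark on adenosine in RNA. The labels call the 3 libraries of a group biological replicates, but the sources used here do not say whether the knockout is 1 clone or how it was made, and p-values measure only the spread between these libraries.

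PARP enzymes take ADP-ribose from NAD and attach it to proteins and nucleic acids. PARP1 and PARP2 build chains of ADP-ribose at DNA breaks, and PARP3, which acts at DNA breaks too, adds single units. A separate branch of the family adds single units or lacks activity of its own, and several of its genes, among them PARP9, PARP10, PARP12 and PARP14, are known to be induced by interferon, as is DTX3L. These 5 genes are called interferon-type below, PARP1, PARP2 and PARP3 are called the DNA damage PARPs, and PARP4 and PARP8 belong to neither class.

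The sequences around the start sites are shown first because the 4 interferon-type genes with a sequence to search, PARP9, DTX3L, PARP12 and PARP14, share a motif there that was found in none of the DNA damage PARPs. This motif, searched on both strands, is GAAA, any 2 bases and GAAA again, the core of the element that interferon regulatory factors bind. Windows of 300 bases, from 250 before to 50 after each RefSeq start site on GRCh38.p14, were searched, and they were found by symbol for 8 of the 10 genes. PARP10 and PARP4 had no window and were not searched. PARP9 and DTX3L lie head to head, with 37 bases between a start site of PARP9 and that of DTX3L. Their shared stretch, chr3:122564271-122564367 on the plus strand, is printed from 30 bases inside PARP9 to 30 bases inside DTX3L. PARP14 (chr3:122680739-122680868, plus strand), PARP12 (chr7:140062922-140063051, minus strand) and, for contrast, PARP1 (chr1:226408064-226408193, minus strand) are printed from 100 bases before to 30 bases after the start site. All are written 5′ to 3′ on the strand named, and capitals mark a match to the motif on either strand.
PARP9-DTX3L: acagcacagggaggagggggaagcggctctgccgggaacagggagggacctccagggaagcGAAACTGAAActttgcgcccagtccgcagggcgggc
PARP14: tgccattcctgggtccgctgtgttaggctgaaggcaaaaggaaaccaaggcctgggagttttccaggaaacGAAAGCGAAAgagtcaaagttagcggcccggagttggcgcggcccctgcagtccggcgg
PARP12: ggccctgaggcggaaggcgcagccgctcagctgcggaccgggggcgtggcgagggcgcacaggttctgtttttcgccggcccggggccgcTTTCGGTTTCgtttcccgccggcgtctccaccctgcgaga
PARP1: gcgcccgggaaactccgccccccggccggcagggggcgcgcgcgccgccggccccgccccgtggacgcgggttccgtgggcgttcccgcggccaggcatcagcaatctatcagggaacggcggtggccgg

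One match served both PARP9 and DTX3L: it covered positions 122564332 to 122564341, beginning 6 bases before the start of DTX3L and 41 bases before that of PARP9. A second annotated start of PARP9 had no match in its window. The match of PARP14 began 29 bases before its start and that of PARP12 began 10 bases before. None of the 3 windows of PARP1, PARP2 and PARP3 held the motif, and none of the 3 windows of PARP8 did. Across the 35116 windows in the RefSeq set, 3.57% held it. A second motif, TTC, any 3 bases and GAA, was also searched, and 7.66% of all windows held it. It was found at PARP14 and at PARP2, a DNA damage PARP. PARP9, DTX3L, PARP12, PARP1, PARP3 and PARP8 had no match to it. A match is a stretch of letters and not a measured binding site.

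YTHDF1, the targeted gene, had 99.4 ± 3.89 CPM (SD, n = 3) in wild type and 48.1 ± 0.87 CPM in the knockout. CPM is a gene's count relative to the total of its library, after scaling with TMM factors. Library totals ran from 27238817 to 40675628 counts. Messenger RNAs encoded by mitochondria took 5.76% to 5.92% of counts in wild type and 3.72% to 3.98% in the knockout; the part of this difference in the results below was not tested. Of the 11 genes listed as markers of the A549 epithelial line, all passed the filter on low counts. Their summed levels were 11969 to 12615 CPM in wild type and 11011 to 11508 CPM in the knockout. ALDH1A1 was the largest part, with means of 6070.4 and 5291 CPM. The markers went both ways: 5 rose, 3 fell and 3 did not pass. CDH1 rose by 1.76 on the log2 scale, while AKR1B10 fell by 1.06 and NQO1 fell by 0.61. EPCAM was low at 2.1 ± 0.419 and 1.94 ± 0.306 CPM. Of 8 leukocyte markers, 6 stayed under 1 CPM in every library, among them PTPRC, and CD3E and CD3D were at 0. The summed level of the list was 14.2 to 15.2 CPM in wild type and 8.11 to 8.41 CPM in the knockout, nearly all of it CD14 and ITGAM. These went opposite ways: CD14 fell by 1.69 from 11.1 to 3.45 CPM, and ITGAM rose by 0.54 from 3.24 to 4.7 CPM. All 5 endothelial markers stayed under 1 CPM in every library, and the 7 fibroblast markers summed to 32.5 to 38.1 CPM in wild type and 44.4 to 47.6 CPM in the knockout, most of it COL1A1. Of the 5 fibroblast markers tested, COL1A1 and LUM rose by 0.49 and 0.72, while COL3A1 fell by 1.27, PDGFRA fell by 1.06 and PDGFRB fell by 3.47; these 3 were under 2 CPM in every library.

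All 10 genes passed the filter on low counts and were tested. In the knockout 8 rose, PARP1 fell and PARP2 did not pass the threshold, in edgeR's quasi-likelihood test with p-values adjusted by the Benjamini-Hochberg method over the 18505 genes tested and a threshold of 0.05. The background is high: 53.5% of all genes tested passed, 27.2% as higher and 26.3% as lower, so a call alone says little here and the sizes carry the description. The 5 interferon-type genes rose by 3.54 to 4.87 on the log2 scale, with a median of 3.89, and ranked between place 119 and place 212 of the 18505 genes by fold change. The 3 DNA damage PARPs lay between -0.27 and 0.78, with a median of -0.18, and the median over all genes tested was 0.00. The medians of the classes differed by 4.07. Since the classes were drawn up with results of these data known, that difference carries no test. In bulk RNA, a change in RNA per cell cannot be told apart from a change in the share of cells that express a gene.

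**Figure D1:**
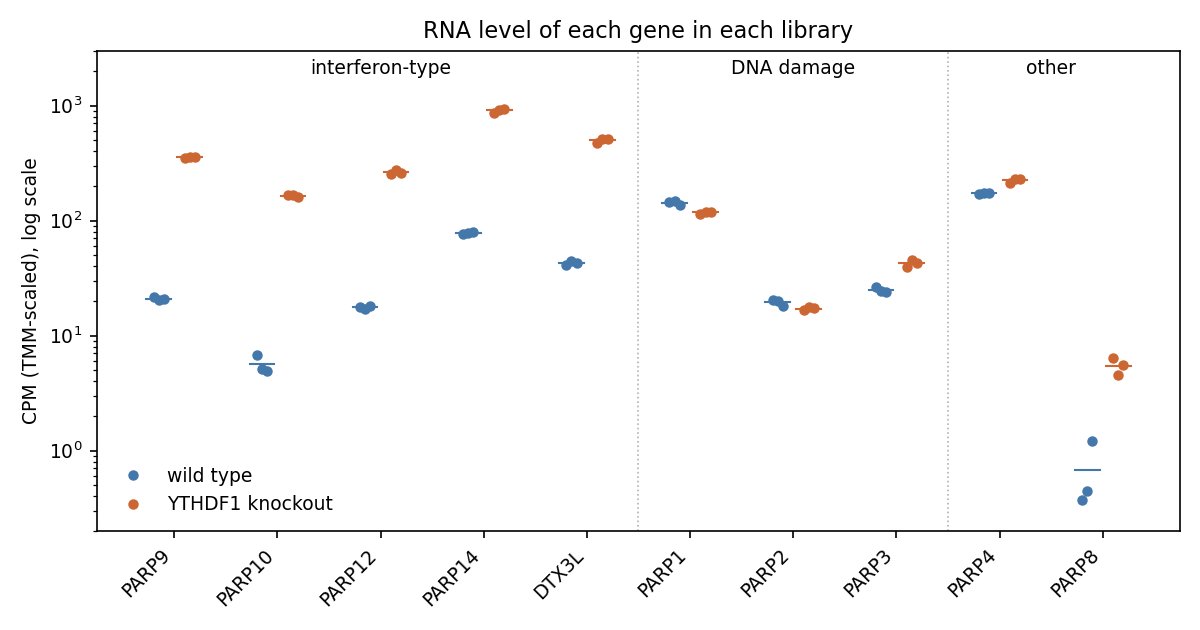
Level of the 10 genes in CPM on a log axis, with 1 point per library (3 wild type, 3 YTHDF1 knockout) and a line at each group's mean. The wild-type and knockout points of the 5 interferon-type genes are more than 10-fold apart, while those of PARP1, PARP2, PARP3 and PARP4 lie close together.

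PARP14, a large enzyme with macrodomains that adds single ADP-ribose units, had the highest CPM of the interferon-type genes, though per kilobase of exon its level overlapped that of DTX3L in both groups. The wild-type libraries held 76.0, 77.3 and 79.7 CPM of PARP14, and the knockout libraries 871, 921 and 943 CPM. The lowest knockout library was far above the highest wild-type library. PARP14 (chromosome 3, 122680618 to 122730840, plus strand) rose by 3.55 (SE 0.0458), or 11.7-fold, with an adjusted p of 1.14e-34.

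DTX3L, a RING-type ubiquitin ligase of the Deltex family and the partner of PARP9, had 41.2, 44.8 and 43.0 CPM in wild type and 469.8, 513 and 516 CPM in the knockout. The groups did not overlap, and the rise of 3.54 (SE 0.0507), or 11.6-fold, was close to that of PARP14, with an adjusted p of 1.83e-33. PARP9, a macrodomain protein with little or no activity when alone, had 21.6, 20.3 and 20.7 CPM in wild type and 351, 361 and 358 CPM in the knockout. PARP9 rose by 4.09 (SE 0.0512), or 17.1-fold, with an adjusted p of 4.71e-35. DTX3L lies at 122564238 to 122575203 on the plus strand of chromosome 3 and PARP9 at 122527924 to 122564577 on the minus strand. In GENCODE 29, 2.4% of the exonic bases of PARP9 and 3.7% of those of DTX3L overlap a gene on the opposite strand.

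These 2 genes, with 37 bases between their starts, did not rise to the same extent. Per kilobase of exon, the ratio of the level of DTX3L to that of PARP9 was 2.9, 3.35 and 3.17 in the wild-type libraries and 2.04, 2.16 and 2.19 in the knockout libraries. The ratio was lower in every knockout library than in every wild-type library. Its mean went from 3.14 ± 0.226 to 2.13 ± 0.0794 (SD, n = 3 each). This ratio is taken within a library and does not depend on how libraries are scaled.

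PARP12, a zinc-finger enzyme that adds single units and has been linked to stress granules and the Golgi, had 17.8, 17.1 and 18.1 CPM in wild type and 253, 274 and 260.1 CPM in the knockout. The groups did not overlap. PARP12 (chromosome 7, 140023744 to 140063721, minus strand) rose by 3.89 (SE 0.0546), or 14.8-fold, with an adjusted p of 1.1e-33. PARP10, a mono-ADP-ribosyltransferase that binds ubiquitin, had 6.75, 5.16 and 4.92 CPM in wild type and 168, 167 and 159.9 CPM in the knockout. It was the scarcest of the 5 in wild type and had the largest rise, of 4.87 (SE 0.0758), or 29.2-fold, with an adjusted p of 2.07e-32. PARP10 spans positions 143977153 to 144012772 of chromosome 8 (minus strand), and 8.6% of its exonic bases overlap a gene on the opposite strand. The sources used here do not say whether strand was used in counting.

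PARP1, the main poly-ADP-ribosyltransferase of the DNA damage response, had 144, 148 and 136 CPM in wild type and 115, 119 and 119.7 CPM in the knockout. Every knockout library was below every wild-type library, by a small margin. PARP1 (chromosome 1, 226360691 to 226408079, minus strand) fell by 0.27 on the log2 scale (SE 0.0465), with an adjusted p of 6.83e-06. Against a null of changes up to 1.5-fold, PARP1 was not called, with an adjusted p of 1.

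PARP2, which shares the repair role of PARP1, had 20.3, 20.2 and 18.1 CPM in wild type and 16.6, 17.6 and 17.4 CPM in the knockout. The log2 fold change of PARP2 was -0.18 (SE 0.086), with an adjusted p of 0.0851. Without wild-type replicate 3, which had the lowest wild-type level, the adjusted p was 0.0489 and the value was -0.23. PARP2 lies on chromosome 14 from 20343582 to 20357905 on the plus strand.

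PARP3 went the other way. It had 26.5, 24.2 and 23.8 CPM in wild type and 39.4, 45.9 and 42.5 CPM in the knockout, with no overlap. PARP3 (chromosome 3, 51942345 to 51948867, plus strand, apart from the PARP9 and PARP14 cluster) rose by 0.78 (SE 0.0723), or 1.72-fold, with an adjusted p of 4.55e-11. Thus 1 of the 3 DNA damage PARPs rose and 1 fell. The groups did not overlap for any of the 10 genes, with 8 higher and 2 lower. Over all genes tested the groups did not overlap for 58.9%, with 29.8% higher and 29.1% lower.

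PARP4, the PARP of the vault particle, a large ribonucleoprotein shell, had 171, 173 and 173 CPM in wild type and 214, 228 and 228 CPM in the knockout. PARP4 (chromosome 13, 24420926 to 24512810, minus strand) rose by 0.38 (SE 0.0432), or 1.3-fold, with an adjusted p of 4.55e-09, and it was not called against a null of changes up to 1.5-fold (adjusted p of 1). The other vault genes tested rose too, by less: MVP, the major vault protein, by 0.23 and TEP1 by 0.17. The 3 vault RNA genes in the list did not pass the filter on low counts.

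PARP8, a little-studied member of the mono-ADP-ribosyltransferase branch, was scarce in wild type, with 14, 12 and 49 counts (0.369, 0.445 and 1.22 CPM). In the knockout it had 207, 184 and 226 counts (6.41, 4.51 and 5.55 CPM). PARP8 (chromosome 5, 50665899 to 50846522, plus strand) rose by 2.96 (SE 0.28), or 7.75-fold, with an adjusted p of 7.29e-11. Wild-type replicate 3 stood above the other two libraries of its group, and without it the log2 fold change was 3.76.

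Levels of different genes were compared as CPM per kilobase of exon, using the union of exons in GENCODE 29, which counts exons that A549 cells may not use. In wild type PARP4 led with 28.3 ± 0.232, followed by PARP1 with 19.9 ± 0.819, PARP3 with 8.48 ± 0.487, PARP14 with 7.4 ± 0.183 and DTX3L with 7.33 ± 0.306 CPM per kilobase. PARP2 (4.76), PARP12 (2.81), PARP9 (2.34), PARP10 (0.93) and PARP8 (0.0676 CPM per kilobase) came after them. Only PARP14 and DTX3L overlapped as neighbours in that order.

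In the knockout the order by CPM per kilobase was PARP14 with 86.8 ± 3.51, DTX3L with 85.2 ± 4.42, PARP12 with 41.8 ± 1.65, PARP9 with 39.9 ± 0.568, PARP4 with 36.8 ± 1.33, PARP10 with 27.3 ± 0.726, PARP1 with 16.5 ± 0.38, PARP3 with 14.5 ± 1.1, PARP2 with 4.21 ± 0.132 and PARP8 with 0.546 ± 0.0946. PARP14 overlapped DTX3L and PARP12 overlapped PARP9, while the other neighbours did not overlap. PARP10 moved from below PARP2 to above PARP1. The 5 interferon-type genes together took 25.3% ± 0.473 of the summed level of the 10 genes in wild type and 79.5% ± 0.1 in the knockout. PARP1 alone went from 24.2% ± 0.709 to 4.65% ± 0.0551 of that sum.

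The summed level of PARP1, PARP2 and PARP3 was 34.1, 33.8 and 31.5 CPM per kilobase in wild type and 33.5, 36.6 and 35.5 in the knockout, so the groups overlapped. The summed level of the interferon-type genes was 20.6, 20.8 and 20.9 CPM per kilobase in wild type and 270.5, 287 and 286 in the knockout. The ratio of the interferon-type sum to the DNA damage sum was 0.606, 0.616 and 0.664 in wild type and 8.06, 7.84 and 8.06 in the knockout. It was below 1 in every wild-type library and above 7 in every knockout library.

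The 8 further members of the PARP family were all tested: 6 rose, 0 fell and 2 did not pass, with a median of 0.22. Over all genes tested 27.2% rose and 26.3% fell. The counts of this list and of every list below stand against those shares, and a split near them says little about a list. Against a null of changes up to 1.5-fold, 43 of the 70 genes named by rule in this report lost their call. ZC3HAV1, the zinc-finger antiviral protein also called PARP13, which binds viral RNA and lacks ADP-ribosyltransferase activity, had 123, 120.2 and 123 CPM in wild type and 308, 313 and 318 CPM in the knockout. It rose by 1.36 (SE 0.0426), less than any of the 5 interferon-type genes. TIPARP, the dioxin-inducible PARP7, had 64.4, 66.2 and 66.4 CPM in wild type and 99.1, 98.3 and 103 CPM in the knockout, rose by 0.61, and it was not called against a null of changes up to 1.5-fold (adjusted p of 0.569).

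PARP15, a mono-ADP-ribosyltransferase whose gene lies between DTX3L and PARP14, had 4 counts in the wild-type group, all in replicate 1, and 89 counts in the knockout group. Its fitted log2 fold change was 4.26 (SE 0.759), with an adjusted p of 1.4e-05. Only the knockout libraries, with 29, 18 and 42 counts, carried it past the filter on low counts, so the size of its change is uncertain. Wild-type replicate 1 stood at 0.106 CPM, and the knockout libraries at 0.898, 0.441 and 1.03 CPM. The 2 remaining wild-type libraries were at 0 counts. A floor of 3 counts over these 2 libraries puts the knockout mean of 0.79 CPM at least 17.6-fold higher, but this leaves out replicate 1. PARP16, an enzyme of the endoplasmic reticulum, rose by 0.25, the tankyrase TNKS2 by 0.19 and PARP6 by 0.18. The calls of PARP16 and PARP6 were lost without wild-type replicate 1 (adjusted p of 0.0588) and without knockout replicate 1 (adjusted p of 0.0632), in that order. The tankyrase TNKS (0.06, adjusted p of 0.435) and PARP11 (-0.14, adjusted p of 0.508) did not pass.

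**Figure D2:**
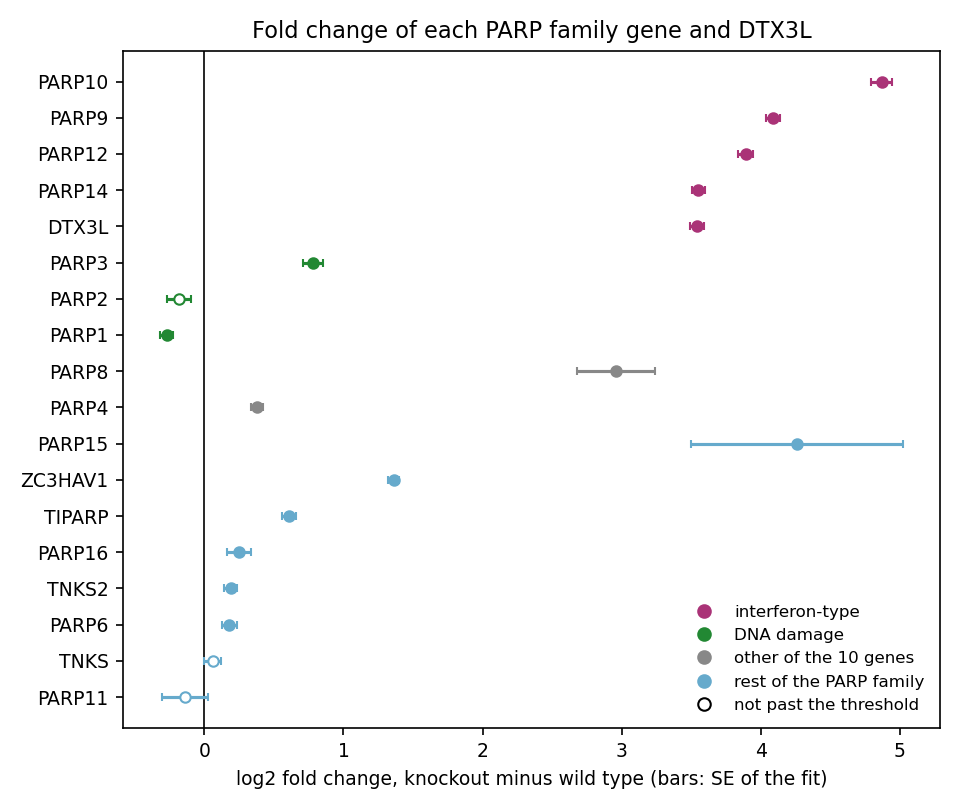
Log2 fold change, knockout minus wild type, of the 10 genes and the 8 further PARP genes, with bars for the standard error of the fit and open points for genes not past the threshold. The interferon-type genes lie between 3.54 and 4.87, and of the other genes only PARP8 and PARP15, both scarce in wild type, exceed 1.36.

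Of the other 4 Deltex genes, DTX2 rose by 0.49 (SE 0.0653) from 29.2 ± 0.344 to 41.1 ± 0.628 CPM. DTX1 (0.69, adjusted p of 0.0985, at about 1 CPM), DTX3 (-0.03, adjusted p of 0.807) and DTX4 (0.03, adjusted p of 0.841) did not pass.

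PARP9, DTX3L, PARP15 and PARP14 form a cluster on chromosome 3, and the genes around it were examined because position played no part in choosing the 10 genes. Within 300 kb of the cluster, 9 tested genes were not among the 10: 3 rose, 4 fell and 2 did not pass. Apart from PARP15, none of them moved by more than 1 on the log2 scale. KPNA1, an importin that is the nearest coding gene on the PARP9 side, had 76.0, 78.1 and 76.7 CPM in wild type and 74.9, 78.1 and 81.5 CPM in the knockout, with a log2 fold change of 0.02 (adjusted p of 0.721). Opposite-strand genes cover 16.3% of the exonic bases of KPNA1.

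On the PARP14 side, HSPBAP1 fell by 0.39 and SLC49A4 had a value of 0.18. The call of HSPBAP1 was lost without wild-type replicate 3 (adjusted p of 0.0551) and that of SLC49A4 was lost with DESeq2 (adjusted p of 0.0566) and without wild-type replicate 1 or 3 or knockout replicate 1 or 2 (adjusted p of 0.0677 to 0.0813). Beyond KPNA1 on the PARP9 side, MIX23 rose by 0.31 and WDR5B fell by 0.62, while FAM162A did not pass (0.11, adjusted p of 0.157). The noncoding genes WDR5B-DT, on the PARP9 side, and LINC02035, on the PARP14 side, fell by 0.76 and by 0.80. Both were named after their values were seen. Opposite-strand genes cover 47.6% of the exonic bases of WDR5B-DT, and its level is uncertain.

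**Figure D3:**
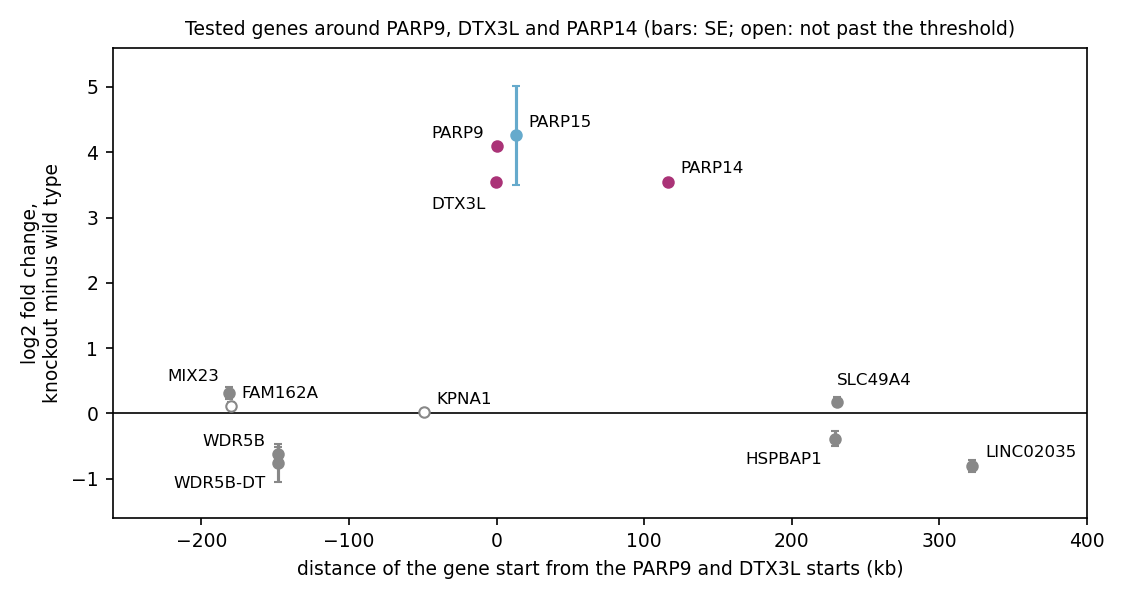
Log2 fold change (bars: standard error) of each tested gene within 300 kb of the cluster against the distance of its start from the PARP9 and DTX3L starts in kb. PARP9, DTX3L, PARP15 and PARP14 lie above 3.5, and the 8 genes on either side lie between -0.80 and 0.31.

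The profile of each interferon-type gene over the 6 libraries, as log2 CPM centred on its own mean, was set against 11257 other genes whose mean reached 5 CPM. The measure of likeness is the root mean square distance, in log2 units. PARP14 and DTX3L were each other's nearest gene (0.0366), and STAT2, a transcription factor activated by interferon receptors, was second for both (0.046 and 0.0517). For PARP9 the nearest were NLRC5 (0.0565), a transactivator of class I antigen genes, and OAS3 (0.0599), which makes an RNase L activator. For PARP12 they were DDX60 (0.0645) and PLSCR1 (0.0841), and for PARP10 they were PSMB9 (0.0866), an immunoproteasome subunit, and SAMD9 (0.121). DTX3L was the 28th nearest gene to PARP9, at 0.286. With 2 groups, this distance mostly reflects the size of the difference between them.

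Among the genes of interferon signalling, 6 of 10 rose, 1 fell and 3 did not pass, with a median of 0.35. The last include IFNAR2 and IL10RB, named after their values were seen, with means of 1.34 and 0.733 CPM in wild type. Same-strand genes cover 44.2% and 38.1% of their exonic bases, so their levels are uncertain. STAT2 rose by 3.55 from 52.0 ± 1.01 to 611 ± 16.3 CPM, as much as PARP14 and DTX3L. The receptor genes IFNGR1 and IFNGR2 rose by 1.29 and 0.44, and JAK1, a kinase that interferon receptors signal through, fell by 0.18. IRF9, named after its values were seen, rose by 1.94 at under 1 CPM and is 1 of the 6. It had 5, 5 and 3 counts in wild type and 18, 20 and 18 counts in the knockout. Only the knockout libraries carried IRF9 past the filter on low counts, so the size of its change is uncertain. Same-strand genes cover 48.4% of its exonic bases, and its level is uncertain too.

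Genes listed under ADP-ribose removal and hydrolysis went both ways, with 4 of 11 higher, 4 lower and 3 not past the threshold, and a median of 0.16. The list goes by name, and the enzyme activity of its genes was not measured. ADPRS, which removes ADP-ribose from serine, rose by 1.06 (SE 0.0721) from 21.3 ± 1.46 to 44.4 ± 2.25 CPM. ADPRH, the arginine-specific hydrolase, rose by 0.99 from 3.68 ± 0.479 to 7.31 ± 0.859 CPM, and the phosphodiesterase ENPP1 rose by 0.80. PARG, the main enzyme that degrades chains, rose by 0.21 from 48.4 ± 0.987 to 56.1 ± 2.02 CPM. NUDT5 fell by 0.50, ADPRHL1 fell by 0.63, the macrodomain hydrolase MACROD1 fell by 0.44 and NUDT9 fell by 0.20. The call of MACROD1 was lost without wild-type replicate 3 or knockout replicate 3 (adjusted p of 0.0686 and 0.0517), and that of NUDT9 without knockout replicate 2 or 3 (adjusted p of 0.0621 and 0.0573).

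Genes for ADP-ribose binding and PARP partners also went both ways, with 4 of 9 higher, 4 lower and 1 not past the threshold, and a median of 0.07. TIMELESS, a replication fork protein that binds PARP1, fell by 0.54 (SE 0.054) from 102 ± 3.77 to 70.1 ± 5.16 CPM. HPF1, the cofactor that directs PARP1 and PARP2 to serine, fell by 0.27, the scaffold XRCC1 fell by 0.26 and the remodeller CHD1L fell by 0.71 at 1 to 2 CPM. HPF1 and CHD1L were not called by DESeq2 (adjusted p of 0.0579 and 0.0932), CHD1L was not called with the replicate number as a block (adjusted p of 0.0698), and XRCC1 was not called without wild-type replicate 2 or knockout replicate 3 (adjusted p of 0.114 and 0.0706). HPF1 also lost its call without wild-type replicate 1 or 2 or knockout replicate 3 (adjusted p of 0.0821 to 0.117), and CHD1L without any library other than wild-type replicate 3 (adjusted p of 0.0628 to 0.153). MACROH2A2, MACROH2A1, GDAP2 and APLF rose by 0.26, 0.15, 0.31 and 0.44, and GDAP2 lost its call without knockout replicate 2 (adjusted p of 0.0637). Opposite-strand genes overlap 30.9% of the exonic bases of MACROH2A1 and same-strand genes overlap 22.8% of those of APLF, so these levels are uncertain. For XRCC1, 17.5% of the exonic bases overlap genes on the opposite strand and 6.5% overlap genes on the same strand.

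Of 17 genes of single-strand break and base excision repair, 7 fell, 4 rose and 6 did not pass, with a median of -0.20. APEX1, the main abasic site endonuclease, fell by 0.55 from 211 ± 5.91 to 144 ± 2.45 CPM. The ligase LIG1 fell by 0.63 from 54.3 ± 1.12 to 35.0 ± 1.86 CPM, the uracil glycosylase UNG fell by 0.67, and the glycosylase NEIL3 fell by 0.88 from 17.4 ± 1.75 to 9.44 ± 0.833 CPM. APTX rose by 0.30, NEIL1 by 0.48, MPG by 0.42 and SMUG1 by 0.24, the last not called by DESeq2 (adjusted p of 0.0572) or without wild-type replicate 2 or 3 or knockout replicate 3 (adjusted p of 0.0748 to 0.128). Of the exonic bases of NEIL1 and MPG, 30.5% and 27.3% overlap genes on the opposite strand. Against a null of changes up to 1.5-fold, APEX1, LIG1, UNG, APTX, NEIL1, MPG and SMUG1 were not called. The adjusted p in that test was 0.382 for LIG1 and 0.184 for UNG.

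NAD is the substrate of every active PARP, and 13 of the 15 genes listed for its synthesis were tested: 7 rose, 3 fell and 3 did not pass, with a median of 0.27. NAMPT, the rate-limiting enzyme of the salvage pathway from nicotinamide, had 251, 265 and 286 CPM in wild type and 658, 605 and 622 CPM in the knockout. The groups did not overlap, and NAMPT rose by 1.23 (SE 0.0457). KYNU, of the route from tryptophan, rose by 0.86 from 396 ± 9.75 to 721 ± 11.2 CPM. QPRT, the enzyme that brings that route into NAD synthesis, fell by 2.80 (SE 0.235) from 5.39 ± 0.294 to 0.762 ± 0.274 CPM, and same-strand genes cover 15.7% of its exonic bases. NADK rose by 0.35, while NMNAT1, the nuclear enzyme that makes NAD, fell by 0.49 and AFMID fell by 0.37.

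Among genes for other enzymes that consume NAD, 6 of 10 rose, 1 fell and 3 did not pass, with a median of 0.29. CD38, a membrane NAD hydrolase, had 10.7, 12.5 and 13.1 CPM in wild type and 207, 185 and 202 CPM in the knockout. It rose by 4.03 (SE 0.0661), a size within the range of the interferon-type PARP genes. SIRT7, SIRT6 and SARM1 rose by 0.58, 0.61 and 0.53, and SIRT2 fell by 0.42. Opposite-strand genes overlap 41.2% of the exonic bases of SARM1, so its level is uncertain.

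**Figure D4:**
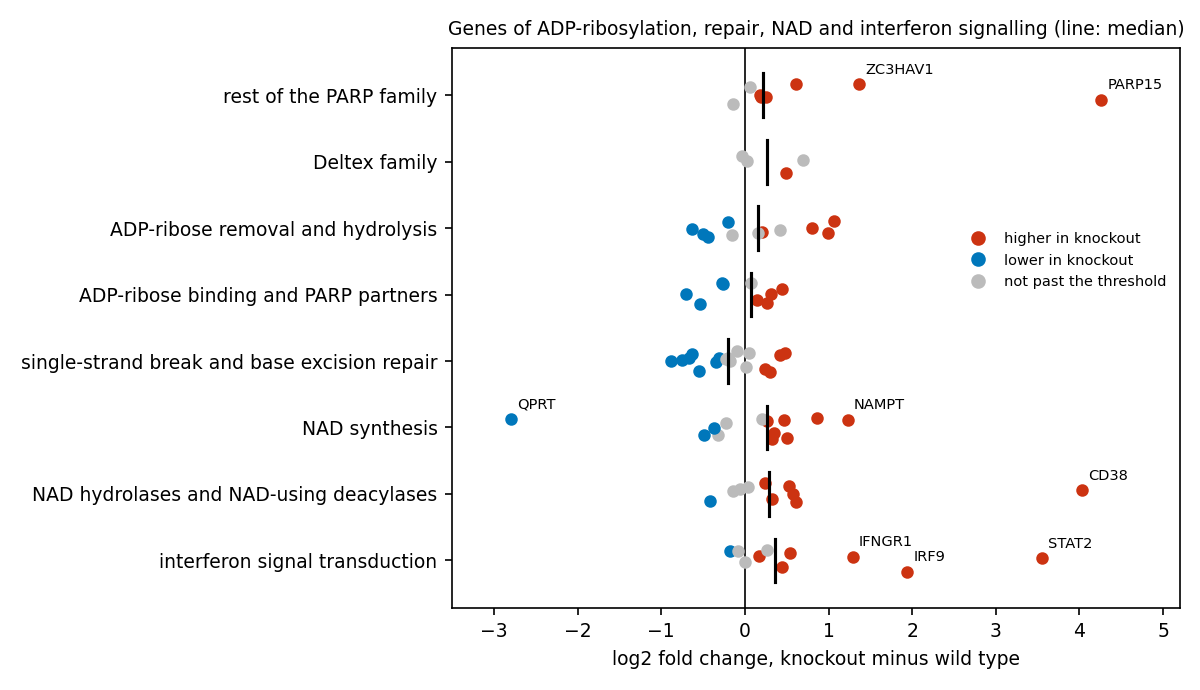
Log2 fold change of each tested gene in 8 lists, with 1 point per gene coloured by its call and a line at each list's median. PARP15, CD38 and STAT2 lie farthest to the right and QPRT farthest to the left, and the medians lie between -0.20 and 0.35.

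The motif seen at PARP9, DTX3L, PARP12 and PARP14 was then counted at all tested genes with a RefSeq window. Of 503 genes with it, 50.5% were called higher and 11.7% had a log2 fold change above 3. Of 11774 genes without it, 29.5% were called higher and 0.866% exceeded 3. In numbers, 59 genes with the motif and 102 genes without it exceeded 3. Over all genes tested 268 exceeded 3, and those without a window were not searched. PARP9, DTX3L, PARP12 and PARP14 are among the 59 by the values given above, so their place there adds nothing. None of the 7 further PARP genes with a window held the motif, ZC3HAV1 and PARP15 included.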

How the data were processed

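Total RNA from A549 cells was made into libraries with a TruSeq stranded kit, per the labels. The authors deposited whole-number counts per Ensembl gene, 1 column per library. Per the submitters' processing notes, the tools were edgeR 3.32.1, featureCounts 2.0.1, STAR 2.7.0d and Trim Galore 0.6.6, on GRCh38; the sources used here do not give their roles, the annotation or the strand setting. Symbols came from a table for 42000 identifiers and from GENCODE 29 for 16605, and coordinates and exons from GENCODE 29. Counts were filtered with filterByExpr, scaled with TMM and tested with edgeR 4.0.16 (R 4.3.3), genotype as the only term, two-sided, with Benjamini-Hochberg adjustment. Standard errors derive from the fold change and F statistic, log2 CPM used a prior count of 2, and floors of 3 counts cover counting error only. The test was tested on simulated data. The common biological coefficient of variation was 0.0617. Libraries of a group differed by more than sampling noise (chi-square per degree of freedom 4.4 to 6.55). DESeq2 1.42.0 was an alternative. Pseudogenes of PARP1 and PARP4 reached at most 0.186 CPM. The 10 genes, the lists and the tests were chosen with earlier results of these data known, so no list was tested. Named were all 10 genes, the further PARP and Deltex genes, coding neighbours within 300 kb, the 2 nearest profiles, and from each other list the 4 smallest adjusted p plus directions with 5 or fewer calls. In the interferon signalling list, 1 gene is not reported here and was left out of its counts and median.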

Additional observations from a re-analysis of the deposited data

How the results depend on the processing

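Under the 14 alternatives the number of the 10 genes that rose was 8, except 7 in a test against a null of changes up to 1.5-fold. With that test the number that fell was 0, and 2585 genes were called over all genes, 1573 of them higher, against 9893 and 5028. Of the 70 genes named by rule, 43 lost their call in it. Among them were DTX2, NUDT5, ADPRHL1, ENPP1, TIMELESS, NMNAT1, SIRT6, SIRT7, SARM1, SIRT2, IFNGR2, WDR5B, MVP and TEP1. Leaving out each library in turn, the number of the 10 genes that fell was 1 to 2, the difference between the medians of the interferon-type and DNA damage genes ran from 4.02 to 4.14, and 9059 to 9486 genes were called, 4623 to 4872 of them higher. The median of all genes was at most 0.027 under any of them. The signs of 3 genes that did not pass the test turned on leaving out a library: leaving out each library, DTX3 ran from -0.072 to 0.048, DTX4 from -0.063 to 0.079 and KPNA1 from -0.004 to 0.055. DTX3 was 0.021 without wild-type replicate 2 and 0.048 without knockout replicate 3, DTX4 was -0.063 without knockout replicate 1 and KPNA1 was -0.004 without knockout replicate 3. No shared deviation of same-numbered libraries was detected (r of -0.0459, -0.0147 and 0.0592 over 11258 genes). Pairs with different numbers ran from -0.0762 to 0.0812. These values cannot show a shared batch that acts weakly or on few genes, and the labels give the numbers only as biological replicates. With the replicate block 9703 genes were called, and of the 70 genes named by rule CHD1L lost its call. The alternatives were not run for IRF9, IFNAR2, IL10RB, WDR5B-DT and LINC02035. Depth limits PARP8, PARP15, CHD1L, DTX1 and IRF9, where 3 counts correspond to 0.0735 to 0.111 CPM.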
